A study of Homo sapiens with 6 samples.

Results

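The genes described here are those of the endoplasmic reticulum (ER) stress response and of the transcription factor ATF4. They were taken by symbol from a list of 53 genes, of which 51 were found among the 14959 genes measured; DERL3 and CBS had no row. The list has an ER arm of 30 genes (29 measured), which holds the chaperones and other proteins of folding and degradation in the ER together with the stress sensors, and an ATF4 arm of 23 genes (22 measured), which holds ATF4, its partners and its target genes. RNA was sequenced from UM-SCC1 cells, a widely used human line from a squamous carcinoma of the head and neck, 48 h after transfection with miR-204-5p mimics or with control mimics. A mimic is a short double-stranded RNA that enters the cell's miRNA machinery. Each group had 3 libraries from separate experiments, and, as far as the labels say, the groups differed in the mimic alone. A single cell line was used, and the level of a mimic in a transfected cell is not that of the cell's own miRNA.

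In the unfolded protein response, sensors in the ER membrane register unfolded protein in the lumen. IRE1, encoded by ERN1, splices XBP1 mRNA, and ATF6 is cut to release a transcription factor. Both raise the genes of ER chaperones and of ER-associated degradation, which returns misfolded proteins to the cytosol. The third sensor, PERK, encoded by EIF2AK3, phosphorylates the translation factor eIF2 and so favours translation of ATF4 mRNA. Other eIF2 kinases, among them the sensor of amino acid shortage EIF2AK4, act on ATF4 in the same way, so that the ATF4 arm also reports on amino acid supply. ATF4 itself is set largely by translation, so its mRNA level need not follow its activity.

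Over all 14959 genes, 6098 (40.8%) passed an adjusted p of 0.05 in limma, a linear model fitted to every gene on log2(FPKM + 1). The share lower in the miR-204-5p libraries was 16.8% of all genes and the share higher 23.9%. FPKM is the number of fragments scaled to transcript length and to library size, so that levels can be compared between genes, and every fold change below is on the log2(FPKM + 1) scale. The table holds no fragment counts. A depth of 13.1 to 16.4 times 1e6 fragments per library was inferred from the steps between low values. Only a limited range of steps was searched, which bounds the depth that could be found, so a different depth is not excluded. The squamous markers KRT5, KRT14, KRT17, TP63, CDH1 and EPCAM lay between 23.9 and 283 FPKM in every library and KRT6A between 0.970 and 3.36. The summed level of these 7 markers was 512 to 614 FPKM with miR-204-5p mimics and 696 to 726 FPKM in the control libraries. Of the 7, TP63 (-1.01), KRT14 (-0.51), KRT5 (-0.43) and EPCAM (-0.21) were lower on the log2 scale, KRT6A (0.81) and CDH1 (0.39) were higher, and KRT17 did not pass. Of 8 markers of immune, endothelial and stromal cells none was at 0. PTPRC, CD3E, PECAM1, VWF, COL1A2 and PDGFRB were below 1 FPKM in all 6 libraries, CD68 and COL1A1 lay between 8.04 and 11.7 FPKM, and the summed level of the 8 was 20.5 to 22.1 FPKM with the mimics and 19.4 to 21.2 FPKM in the controls. Of these 8 markers 3 passed, all higher with the mimics at these low levels: VWF at 0.457 against 0.299 FPKM (adjusted p = 0.0234), COL1A2 at 0.605 against 0.323 FPKM (0.00245) and PDGFRB at 0.359 against 0.177 FPKM (0.00628). In bulk RNA a change within cells cannot be told apart from a change in the make-up of the culture, and the part of the marker changes in the results below was not tested.

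Of the 51 genes measured, 26 passed the adjusted p (51%, against 40.8% of all genes), 11 of them lower and 15 higher. The ER arm had 12 of 29 (41.4%), evenly split between 6 lower and 6 higher, and the ATF4 arm had 14 of 22 (63.6%), 5 lower and 9 higher. With genes of a mean of at least 1 FPKM alone, 5761 of 11504 genes passed, and 28 of 50 of the list. The ER arm then had 13 of 29 and the ATF4 arm 15 of 21. The 40.8% also counts genes below that level. Neither arm moved in a single direction. The median log2 fold change was 0.012 over the ER arm and 0.023 over the ATF4 arm, beside 0.032 over all genes. Both arm medians were below 0 under the 3 other scalings tried, where the median over all genes also fell, to between -0.0001 and 0.0088. The arms differed in the size of the changes. The median absolute log2 fold change was 0.15 in the ER arm, 0.32 in the ATF4 arm and 0.18 over all genes. Beyond 0.5 in either direction were 3 of the 29 ER arm genes, 7 of the 22 ATF4 arm genes and 1950 of all 14959 genes. These medians are descriptions of 2 lists and were not tested against each other. The groups did not overlap in any library for 34 of the 51 genes (66.7%, against 53.6% of all genes). The counts per role given below rest on few genes each. The share to set beside them is 40.8% of all genes, or 5761 of 11504 at a mean of at least 1 FPKM.

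**Figure D1:**
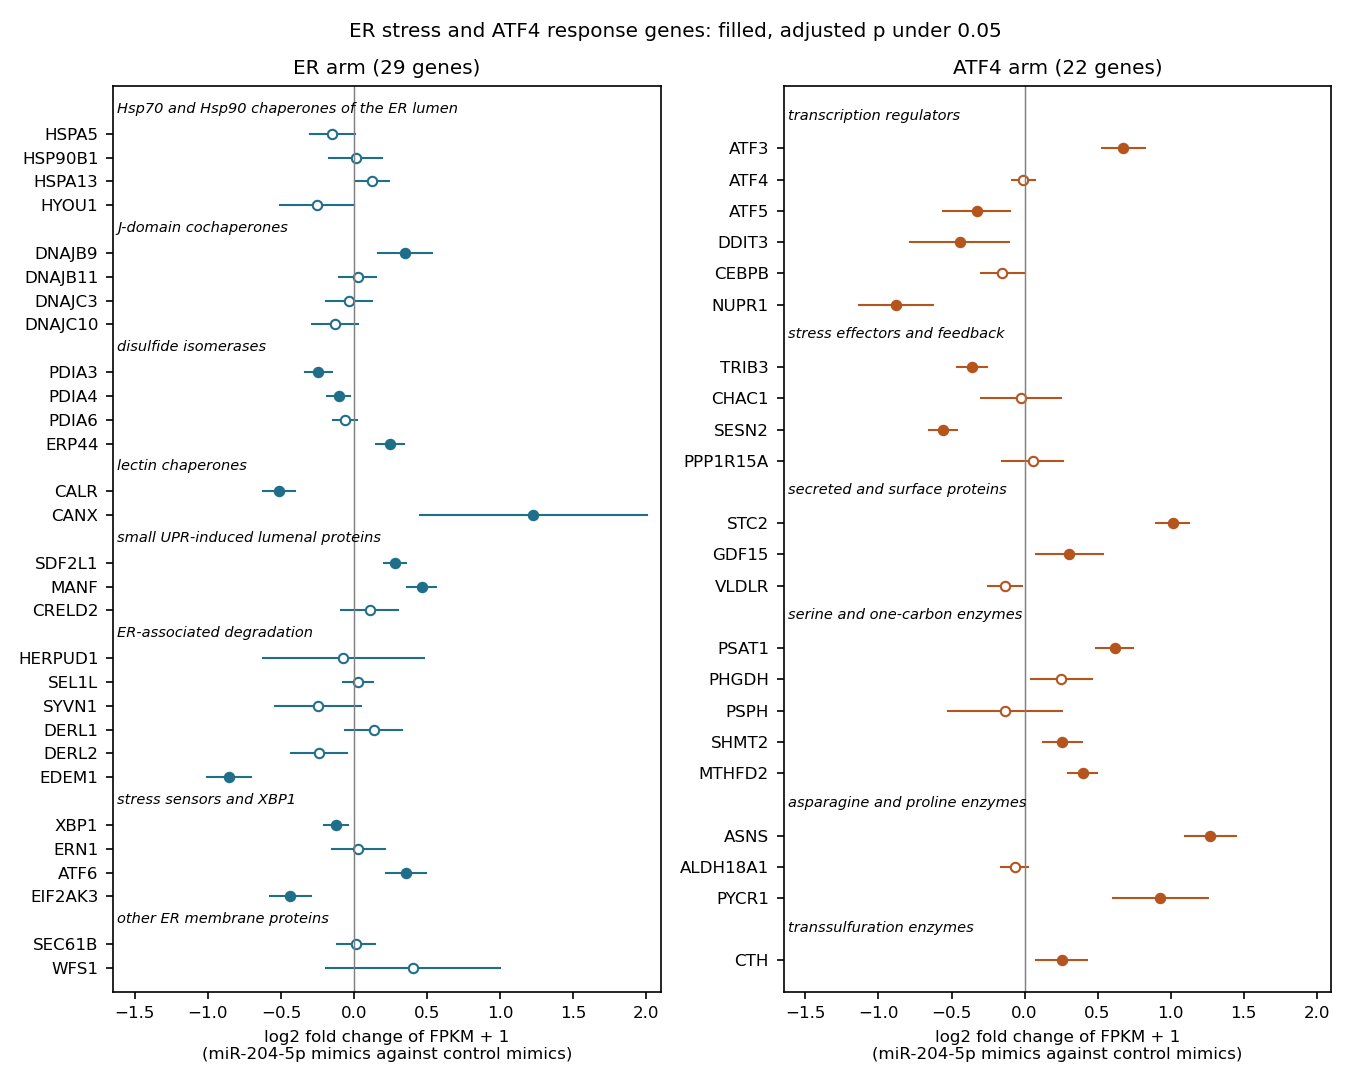
Log2 fold change of FPKM + 1 (x axis, miR-204-5p mimics against control mimics) of the 29 ER arm and 22 ATF4 arm genes, grouped by role. Points are fitted values, lines their 95% confidence intervals, and filled points passed an adjusted p of 0.05; both arms hold filled points on either side of 0.

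**Figure D2:**
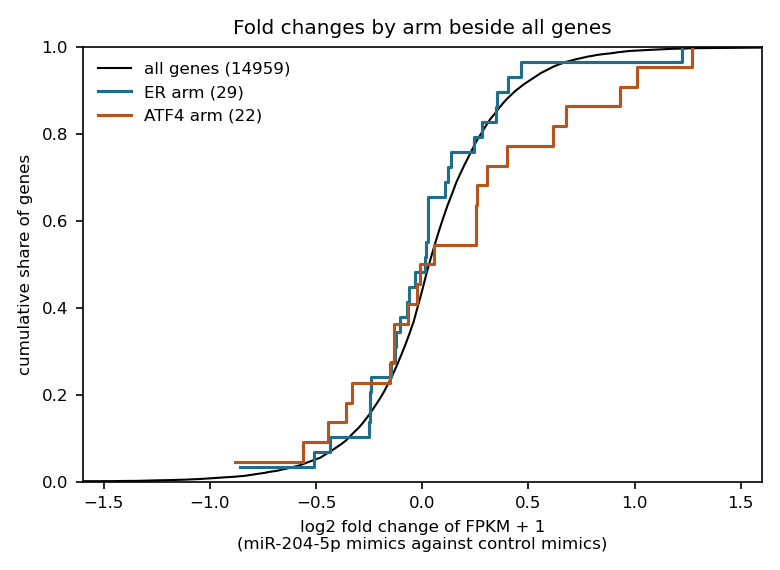
Cumulative share of genes (y axis, 0 to 1) by log2 fold change of FPKM + 1 (x axis) for all 14959 genes, the 29 ER arm genes and the 22 ATF4 arm genes. The medians are 0.032 for all genes, 0.012 for the ER arm and 0.023 for the ATF4 arm. Beyond 0.6 on the higher side lie 5 ATF4 arm genes and, of the ER arm, CANX at 1.23. The cumulative share of all genes at 0.6 is 0.9503.

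A minority of the ER arm promoters carry a known sequence. The ER stress element (CCAAT, 9 bases of any kind, CCACG) binds the general factor NF-Y at its first part and ATF6 at its second. In the RefSeq promoters on GRCh38.p14, from 250 bases before to 50 after the start, it was found on either strand in 7 of the 27 ER arm genes with a promoter in the table, in 0 of the 19 ATF4 arm genes and in 25 of 27305 genes (0.0916%). The stretches below are printed because these 7 genes share the element; capitals mark its fixed bases.
HSPA5, chr9:125241385-125241414, minus strand: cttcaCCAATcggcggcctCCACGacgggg
HSP90B1, chr12:103930211-103930240, plus strand: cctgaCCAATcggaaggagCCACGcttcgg
CALR, chr19:12938378-12938407, minus strand: accgaCCAATgatggtcgaCCACGcgtggg
CANX, chr5:179698773-179698802, plus strand: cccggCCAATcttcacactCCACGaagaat
PDIA6, chr2:10812847-10812876, minus strand: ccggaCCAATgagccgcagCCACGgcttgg
CRELD2, chr22:49918548-49918577, minus strand: atggcCCAATccgagttcgCCACGagaggt
XBP1, chr22:28800597-28800626, minus strand: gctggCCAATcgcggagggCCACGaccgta
HSP90B1 had another copy on its minus strand. Of the 7 genes, CALR and XBP1 were lower, CANX was higher, and HSPA5, HSP90B1, PDIA6 and CRELD2 did not pass the adjusted p; of the 3 calls, that of CALR alone held under all 12 alternatives, and the libraries on which those of XBP1 and CANX rest are named with their values below. The XBP1 element (TGACGTGG, either strand) was found in 3 of the 46 promoters, those of HYOU1, DNAJC10 and ALDH18A1, and in 0.927% of all genes. A match is a description of the sequence and no evidence that the site is used in these cells.

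The Hsp70 and Hsp90 chaperones of the ER lumen, the usual readout of ER stress, gave 0 of 4 genes past the adjusted p. At an unadjusted p under 0.05 there was 1 of 4, beside 7395 of all 14959 genes. HSPA5 (BiP), the main Hsp70 of the lumen, stood at 236, 232 and 252 FPKM with miR-204-5p mimics and at 289, 252 and 258 FPKM in the controls. The groups touched at 252 FPKM without crossing, and the log2 fold change was -0.15 (95% interval -0.30 to 0.00, adjusted p = 0.108), or -0.088 without control replicate 1. HSP90B1 (GRP94), the Hsp90 of the lumen, stood at 449.9, 445 and 475 FPKM against 455, 409 and 499 FPKM. The mimic libraries lay inside the range of the controls, with a log2 fold change of 0.012 (interval -0.17 to 0.19, adjusted p = 0.916); the table lists a transcript of 581 nt for it, of up to 3032 nt annotated. HYOU1, a large Hsp70-like protein that helps BiP exchange its nucleotide, stood at 51.7, 53.5 and 57.1 FPKM against 71.4, 69.3 and 54.3 FPKM. Control replicate 3 alone overlapped the mimic libraries; the log2 fold change of -0.25 (adjusted p = 0.104) became -0.38 (adjusted p = 0.00541) without it. HSPA13, another Hsp70-like protein of the secretory pathway, was at 11.1 ± 0.319 against 10.2 ± 0.349 FPKM (SD, n = 3), with an adjusted p of 0.0877.

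The J-domain cochaperones, which bring substrates to BiP and stimulate its ATPase, gave 1 of 4. DNAJB9 (ERdj4), a repressor of IRE1 and an XBP1 target, rose from 8.81, 7.13 and 7.58 FPKM in the controls to 9.92, 10.6 and 10.2 FPKM, with no overlap. Its log2 fold change was 0.35 ± 0.078 (SE, adjusted p = 0.0129). DNAJB11, DNAJC3 and DNAJC10 had log2 fold changes from -0.13 to 0.027 and adjusted p from 0.168 to 0.728.

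Among the disulfide isomerases 3 of 4 passed, in both directions. PDIA3 (ERp57), which works with calnexin and calreticulin on glycoproteins, fell from 109.8, 106 and 113 FPKM to 95.01, 90.5 and 91.3 FPKM. All mimic libraries were below all controls, with a log2 fold change of -0.24 ± 0.038 (adjusted p = 0.00312). ERP44, which retains proteins in the early secretory pathway by thiol bonds, rose from 21.7 ± 0.686 to 25.9 ± 0.559 FPKM, with a log2 fold change of 0.24 ± 0.041 (adjusted p = 0.00400). PDIA4, a larger isomerase, was at 74.0 ± 1.28 against 79.6 ± 1.51 FPKM, which gave a log2 fold change of -0.10 (adjusted p = 0.0452). The call for PDIA4 was lost without any 1 of the 6 libraries (adjusted p = 0.0537 to 0.132). PDIA6, which also regulates IRE1 and PERK, was at 90.0 ± 1.79 against 94.0 ± 1.98 FPKM (adjusted p = 0.199).

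The lectin chaperones, calreticulin in the lumen and calnexin in the membrane, hold newly made glycoproteins in the same folding cycle, and their mRNAs went in opposite directions. CALR fell from 628, 579 and 610.1 FPKM to 433, 411 and 430.1 FPKM, 0.701 of the control mean, with a log2 fold change of -0.51 ± 0.046 (adjusted p = 0.000368). CALR had the highest mean level of all 51 genes. CANX was listed at 205, 205 and 113 FPKM with the mimics against 88.0, 88.1 and 46.9 FPKM, and replicate 3 was the lowest of its group in both. The groups did not overlap, and the log2 fold change was 1.23 ± 0.32 (adjusted p = 0.0237). The call for CANX was lost without miR-204-5p mimics replicate 1 (adjusted p = 0.0764) or replicate 2 (adjusted p = 0.0796). CANX is listed with a transcript of 585 nt, of 19 annotated ones that reach 4260 nt, and whether its value is that of this transcript or of the gene is not given in the sources used here.

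The small lumenal proteins that the unfolded protein response induces gave 2 of 3, both higher. MANF, a secreted factor kept in the ER by BiP, rose from 46.3, 44.9 and 48.6 FPKM to 63.2, 65.8 and 64.9 FPKM. Its log2 fold change was 0.46 ± 0.041 (adjusted p = 0.000366). SDF2L1, which assists DNAJB11 at BiP, rose from 59.9, 58.9 and 58.7 FPKM to 73.0, 70.5 and 72.9 FPKM, which gave a log2 fold change of 0.28 ± 0.032 (adjusted p = 0.000925). In both genes every mimic library lay above every control, by more than the spread within either group. CRELD2, the remaining gene of the set, overlapped between groups at 13.3 ± 1.47 against 12.2 ± 0.503 FPKM (adjusted p = 0.347).

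**Figure D3:**
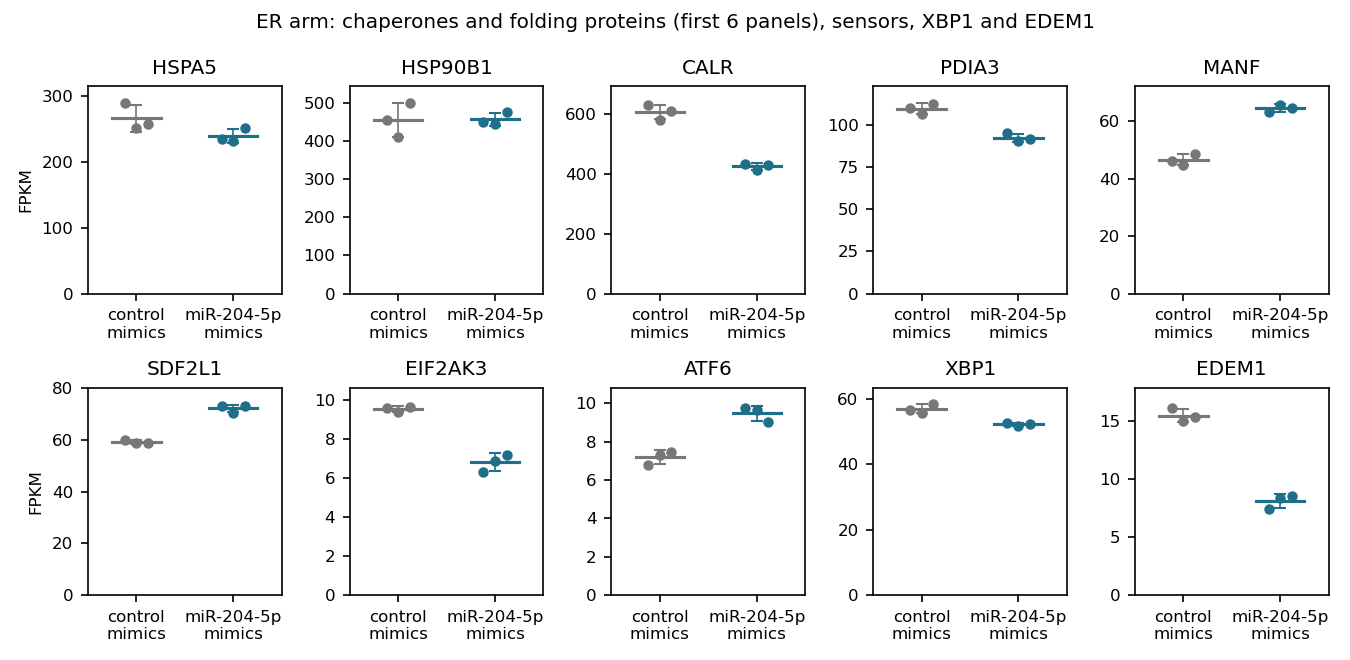
FPKM (y axis, from 0, own scale in each panel) of 10 ER arm genes in each of the 3 control libraries (grey) and 3 miR-204-5p mimic libraries (blue); horizontal bars are means and whiskers SD. HSP90B1 overlaps between groups, CALR, PDIA3, EIF2AK3, XBP1 and EDEM1 sit lower and MANF, SDF2L1 and ATF6 higher with the mimics.

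ER-associated degradation gave 1 of 6 measured genes. EDEM1, the mannosidase-like protein that takes glycoproteins out of the calnexin cycle for degradation, fell from 16.1, 14.99 and 15.3 FPKM to 7.43, 8.38 and 8.52 FPKM. This was 0.523 of the control mean and the lowest log2 fold change of the ER arm, -0.86 ± 0.063 (adjusted p = 0.000193). EDEM1 is listed with a transcript of 978 nt annotated for nonsense-mediated decay, against 6146 nt for its longest. The E3 ligase SYVN1 (HRD1) and its partner SEL1L, the stress-induced HERPUD1 and the membrane proteins DERL1 and DERL2 had log2 fold changes from -0.25 to 0.13. DERL2 was the nearest to the threshold, at 7.18 ± 0.451 against 8.68 ± 0.810 FPKM (adjusted p = 0.0519), and passed without control replicate 2 (adjusted p = 0.0218). HERPUD1, which ATF4, ATF6 and XBP1 can all induce, spread from 15.4 to 25.2 FPKM with the mimics and from 15.9 to 27.6 FPKM in the controls, so that a log2 change between -0.63 and 0.48 could not be told from none.

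Of the sensors and XBP1, 3 of 4 passed. EIF2AK3 (PERK) fell from 9.61, 9.38 and 9.67 FPKM to 6.31, 6.91 and 7.22 FPKM, 0.713 of the control mean, with a log2 fold change of -0.44 ± 0.059 (adjusted p = 0.00182). ATF6 rose from 6.80, 7.32 and 7.47 FPKM to 9.73, 9.66 and 9.02 FPKM, which gave a log2 fold change of 0.35 ± 0.057 (adjusted p = 0.00361). The PERK and ATF6 mRNAs thus went in opposite directions, each with no overlap between groups. XBP1, whose spliced form is the transcription factor of the IRE1 branch, was at 52.3 ± 0.465 against 57.0 ± 1.39 FPKM (adjusted p = 0.0268). The call for XBP1 was lost without control replicate 1, control replicate 3, miR-204-5p mimics replicate 2 or replicate 3 (adjusted p = 0.0568 to 0.0792). ERN1 (IRE1) was at 4.34 ± 0.434 against 4.23 ± 0.168 FPKM (adjusted p = 0.802). Splicing of XBP1 cannot be read from 1 value per gene. The remaining ER membrane genes were the translocon subunit SEC61B and the Wolfram syndrome protein WFS1. They gave 0 of 2 past the adjusted p and 0 of 2 at an unadjusted p under 0.05, beside 7395 of all 14959 genes. WFS1 was at 3.35 FPKM in control replicate 3 and between 6.67 and 8.27 FPKM in the other libraries. Its log2 fold change of 0.40 (adjusted p = 0.245) became 0.10 without that library.

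In the ATF4 arm the amino acid and one-carbon enzymes moved apart from the stress regulators. Of the 9 enzymes measured 6 were higher and 0 lower, with 7 at an unadjusted p under 0.05 and a median log2 fold change of 0.26. Of the 10 transcription regulators and stress effectors 5 were lower and 1 higher, with a median of -0.24. The shares of all genes were 23.9% higher and 16.8% lower, and 7395 of all 14959 genes had an unadjusted p under 0.05. Roles were joined into these 2 groups after their values had been seen, so the contrast is a description. The count of 5 lower regulators became 3 without control replicate 2, miR-204-5p mimics replicate 1 or miR-204-5p mimics replicate 2, and that of the whole ATF4 arm likewise from 5 to 3.

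Of the enzymes that make asparagine and proline 2 of 3 passed, both higher. ASNS, which makes asparagine from aspartate and is a much used ATF4 reporter, rose from 9.27, 10.7 and 10.7 FPKM to 27.9, 24.6 and 25.9 FPKM. This was 2.55 times the control mean and the highest log2 fold change of all 51 genes, 1.27 ± 0.073 (adjusted p = 9.12e-05). PYCR1, which makes proline in mitochondria, rose from 12.2, 16.3 and 11.8 FPKM to 23.0, 27.0 and 28.9 FPKM, which gave a log2 fold change of 0.93 ± 0.14 (adjusted p = 0.00243). In both genes the lowest mimic library lay above the highest control. ALDH18A1, the enzyme upstream of PYCR1, was at 39.4 ± 0.567 against 41.4 ± 1.33 FPKM, which gave a log2 fold change of -0.069 (adjusted p = 0.197).

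Serine and one-carbon enzymes gave 3 of 5, all higher. PSAT1, the aminotransferase of serine synthesis, rose from 40.8, 40.7 and 45.6 FPKM to 64.1, 65.9 and 66.2 FPKM, which gave a log2 fold change of 0.62 ± 0.052 (adjusted p = 0.000298). MTHFD2, the mitochondrial folate enzyme, rose from 33.8, 33.0 and 35.1 FPKM to 44.0, 46.6 and 44.6 FPKM, with 0.40 ± 0.041 (adjusted p = 0.000618). SHMT2, which splits serine into glycine and a one-carbon unit, rose from 65.0, 64.4 and 69.6 FPKM to 75.2, 78.8 and 84.7 FPKM, with 0.26 ± 0.055 (adjusted p = 0.0108). No mimic library of these genes overlapped a control. PHGDH, the first enzyme of serine synthesis, was at 40.7, 34.0 and 41.1 FPKM against 32.5, 34.1 and 29.8 FPKM (adjusted p = 0.0569). Replicate 2 of the mimics alone fell among the controls, and without it the adjusted p of PHGDH was 0.0143. PSPH, the last enzyme of the same path, had a log2 fold change of -0.13 (interval -0.52 to 0.26). It stood at 12.2 FPKM in miR-204-5p mimics replicate 1 and 17.6 to 19.3 FPKM elsewhere. Without miR-204-5p mimics replicate 1 the log2 fold change was 0.068. PSPH is listed with a transcript of 1409 nt annotated for nonsense-mediated decay, against 2178 nt for its longest. CTH, the transsulfuration enzyme that releases cysteine, was at 3.65 ± 0.211 against 2.91 ± 0.250 FPKM (adjusted p = 0.0336). The call for CTH was lost without control replicate 1, control replicate 2, miR-204-5p mimics replicate 1 or miR-204-5p mimics replicate 3 (adjusted p = 0.0676 to 0.0926) and under the 3 other scalings and the replicate block (0.05002 to 0.109).

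The ATF4 mRNA itself stood at 164, 160.4 and 165 FPKM with the mimics and 161, 168 and 165 FPKM in the controls. The groups overlapped fully, and the log2 fold change was -0.0091 with an interval from -0.09 to 0.07 (adjusted p = 0.855). ATF3, a stress-induced factor downstream of ATF4, was the only regulator to rise, from 3.59, 4.04 and 4.01 FPKM to 6.87, 6.62 and 6.85 FPKM, which gave a log2 fold change of 0.67 ± 0.061 (adjusted p = 0.000389). NUPR1, a small stress-induced chromatin protein, fell from 4.73, 4.67 and 4.48 FPKM to 2.33, 1.604 and 2.28 FPKM, the lowest log2 fold change of all 51 genes at -0.88 ± 0.11 (adjusted p = 0.00112). DDIT3 (CHOP), the pro-apoptotic factor of prolonged ER stress, stood at 10.3, 9.34 and 9.39 FPKM against 17.0, 13.1 and 11.1 FPKM. The 2 groups of DDIT3 did not overlap, but the controls spread widely. Its log2 fold change was -0.44 ± 0.14 (adjusted p = 0.0453), and -0.29 without control replicate 1. The call for DDIT3 was lost without any 1 of the libraries except control replicate 3 (adjusted p = 0.0530 to 0.120). ATF5, a related factor that is also translated under eIF2 phosphorylation, was at 1.90 ± 0.0816 against 2.66 ± 0.435 FPKM (adjusted p = 0.0330), a call lost without any 1 library except control replicate 1 (0.0630 to 0.0939). CEBPB, a partner of ATF4, was at 83.4 ± 6.99 against 92.7 ± 1.25 FPKM (adjusted p = 0.0910) and passed without miR-204-5p mimics replicate 3 (0.0120).

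**Figure D4:**
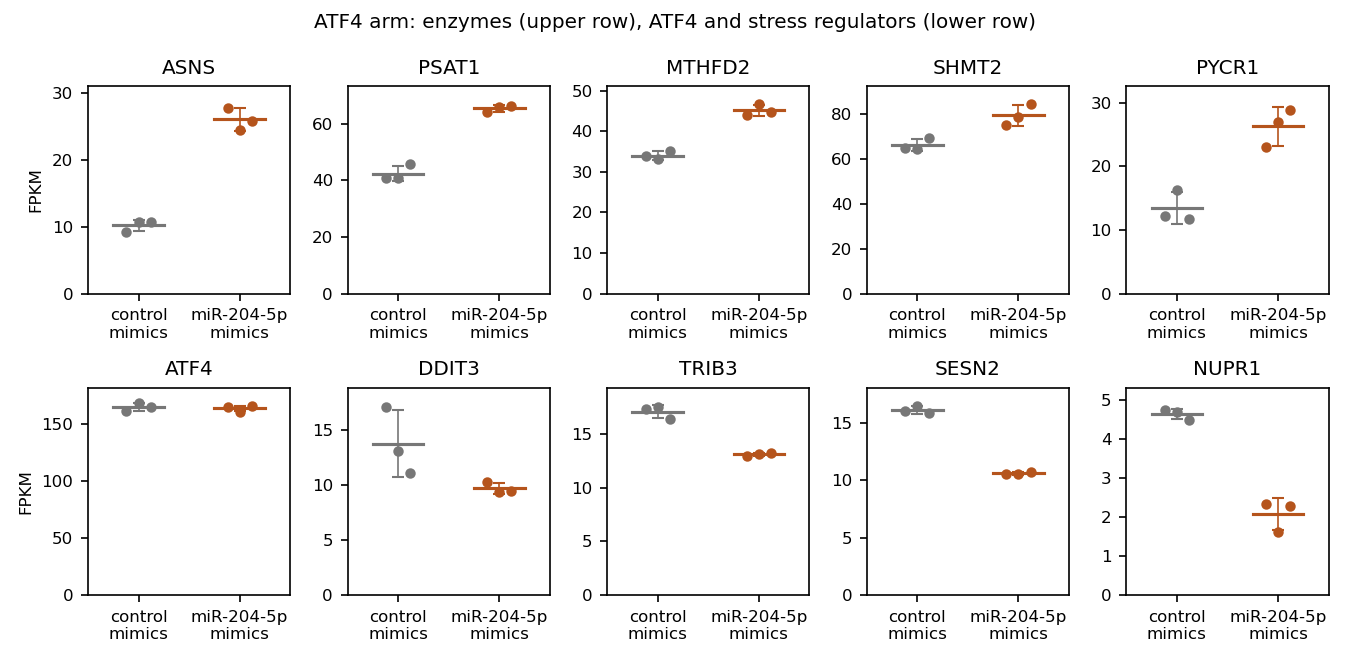
FPKM (y axis, from 0, own scale in each panel) of 5 ATF4 arm enzymes (upper row) and of ATF4 with 4 stress regulators (lower row) in each of the 3 control libraries (grey) and 3 miR-204-5p mimic libraries (orange); horizontal bars are means and whiskers SD. All enzymes shown are higher with the mimics, ATF4 overlaps, and DDIT3, TRIB3, SESN2 and NUPR1 are lower.

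Among the stress effectors 2 of 4 passed, both lower. SESN2 (sestrin 2), which restrains mTORC1 when amino acids run short, fell from 16.1, 16.4 and 15.8 FPKM to 10.5, 10.5 and 10.7 FPKM. Its log2 fold change was -0.56 ± 0.040 (adjusted p = 0.000175). TRIB3, a pseudokinase that inhibits AKT and feeds back on ATF4 and CHOP, fell from 17.4, 17.5 and 16.4 FPKM to 13.0, 13.2 and 13.3 FPKM, with -0.36 ± 0.043 (adjusted p = 0.00110). In both genes the libraries of a group lay close together and far from those of the other. CHAC1, which degrades glutathione and is among the most inducible ATF4 targets, was at 2.46 ± 0.481 against 2.50 ± 0.193 FPKM (adjusted p = 0.895). PPP1R15A (GADD34), the phosphatase subunit that reverses eIF2 phosphorylation, was at 13.8 ± 0.408 against 13.3 ± 1.71 FPKM (adjusted p = 0.656).

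Of the secreted and surface proteins 2 of 3 passed, both higher. STC2 (stanniocalcin 2), a secreted glycoprotein induced by ER stress, rose from 5.27, 5.33 and 5.48 FPKM to 11.5, 12.1 and 11.96 FPKM, 2.21 times the control mean. Its log2 fold change of 1.01 ± 0.048 had the smallest adjusted p of all 51 genes (5.77e-05). GDF15, a stress hormone of the TGF-beta family, stood at 15.4, 16.4 and 19.1 FPKM against 14.9, 12.9 and 12.6 FPKM (adjusted p = 0.0425). The call for GDF15 was lost without control replicate 2, control replicate 3, miR-204-5p mimics replicate 2 or miR-204-5p mimics replicate 3 (0.0842 to 0.119) and under the 3 other scalings and the replicate block (0.0504 to 0.0946). VLDLR, a lipoprotein receptor, was the only measured gene below a mean of 1 FPKM, at 0.558 ± 0.0347 against 0.708 ± 0.0604 (adjusted p = 0.0713).

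The sequence sought for the ATF4 arm was the C/EBP-ATF element (TGATGNAA, either strand), which is short. It was present in 3 of the 19 ATF4 arm promoters in the table and in HERPUD1 of the ER arm, against 4.46% of 27305 genes. All 4 matches are printed, with the element in capitals on GRCh38.p14.
ASNS, chr7:97872458-97872487, minus strand: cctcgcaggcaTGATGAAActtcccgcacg
ATF3, chr1:212565205-212565234, plus strand: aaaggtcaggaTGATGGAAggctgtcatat
CHAC1, chr15:40953251-40953280, minus strand: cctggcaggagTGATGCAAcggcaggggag
HERPUD1, chr16:56931955-56931984, minus strand: tgggcacgggcTGATGCAAcccgccgcgtc
ASNS and ATF3 rose, whereas CHAC1 and HERPUD1 overlapped between groups. The other 16 ATF4 arm promoters held no match in this window, which says nothing of sites elsewhere.

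Further genes of these pathways were taken from 3 lists that share no gene with the 53, and each list held genes that passed in both directions. Of 40 other genes of ER folding and degradation 20 passed (50%, against 40.8% of all genes), 7 lower and 13 higher. Those higher were 8 without control replicate 3 or without miR-204-5p mimics replicate 2. All 40 had a mean of at least 1 FPKM, and with such genes alone 20 of 40 passed, beside 5761 of 11504 genes. The folding sensor UGGT1 (-0.66), the translocon subunit SEC61A1 (-0.66) and the ubiquitin-conjugating enzyme UBE2J1 (-0.57) had the lowest log2 fold changes. EDEM3 (0.68), a mannosidase related to EDEM1, the translocon-associated SSR3 (0.54) and the UGGT1 paralogue UGGT2 (0.33) had the highest. EDEM1 and EDEM3, and UGGT1 and UGGT2, thus differed in sign within each pair. Of 20 other genes of stress signalling 8 passed (40%, near the 40.8% of all genes), 5 lower and 3 higher. With genes of a mean of at least 1 FPKM alone 11 of 19 passed, beside 5761 of 11504 genes. The lowest were the kinase MAP3K5 (-0.55), the ATF6 paralogue ATF6B (-0.47) and the amino acid sensor EIF2AK4 (-0.46). The highest were the eIF2B subunits EIF2B2 (0.42) and EIF2B3 (0.28) and MBTPS2 (0.29), a protease that cuts ATF6.

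Of 31 other ATF4 target genes 21 passed (67.7%, against 40.8% of all genes), 7 lower and 14 higher. With genes of a mean of at least 1 FPKM alone 21 of 29 passed, beside 5761 of 11504 genes. Over all genes 16.8% were lower and 23.9% higher. The cystine transporter SLC7A11 rose from 2.62 ± 0.104 to 12.6 ± 1.01 FPKM, which gave a log2 fold change of 1.91 ± 0.070 (adjusted p = 2.95e-05). The aminoacyl-tRNA synthetases CARS1 and LARS1 followed, with log2 fold changes of 0.78 and 0.70. The mTORC1 inhibitor DDIT4 fell from 606 ± 49.0 to 309 ± 21.8 FPKM, which gave a log2 fold change of -0.97 ± 0.076 (adjusted p = 0.000236). The aminotransferase GPT2 (-0.66) and the amino acid transporter SLC38A2 (-0.60) also fell, so that genes of amino acid metabolism stood on both sides.

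The miR-204-5p seed, bases 2 to 8 of the mature miRNA, was compared with the 3'UTRs, since pairing there usually lowers an mRNA. The mature miRNA is encoded on GRCh38.p14 at chr9:70810031-70810052, minus strand, and reads as follows in RefSeq, with the seed in capitals.
miR-204-5p: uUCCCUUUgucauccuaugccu
A match to the whole seed is called 7mer-m8 (AAAGGGA), the same with a further A an 8mer (AAAGGGAA), and a match to bases 2 to 7 with the A a 7mer-A1 (AAGGGAA). When the longest annotated 3'UTR per gene (GENCODE 29) was searched, 13 of the 51 genes had at least 1 match (25.5%, exact binomial 95% interval 14.3% to 39.6%), against 3973 of 14660 genes (27.1%). The ER arm had 10 of 29 and the ATF4 arm 3 of 22. The median 3'UTR length was 1497 nt in the ER arm and 838 nt in the ATF4 arm; the part of this difference in the counts was not tested.

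Genes with a match went in both directions. Of the 13, PDIA3, EDEM1, EIF2AK3, NUPR1 and TRIB3 were lower, ERP44, ATF6 and STC2 were higher, and DERL1, DNAJC10, HSPA13, SEL1L and WFS1 did not pass. Of the 38 genes without a match 6 were lower, 12 higher and 20 did not pass. The share lower was thus 38.5% with and 15.8% without a match, beside 27.0% and 13.4% over all genes. All matches of the 8 genes that passed are printed within stretches of 30 bases, with the paired bases in capitals, on GRCh38 and on the strand of the gene; all lie within a 3'UTR exon.
EIF2AK3, 8mer, chr2:88557097-88557126, minus strand: ttacctccaatAAAGGGAAaatgaagcttt
NUPR1, 8mer, chr16:28534580-28534609, minus strand: gttttatgatgAAAGGGAAccagagagagt
EDEM1, 7mer-m8, chr3:5217487-5217516, plus strand: atttttagtcaAAAGGGAgaaatcttattc
EDEM1, 7mer-m8, chr3:5219827-5219856, plus strand: tatttaaattaAAAGGGAtctttttgtaaa
TRIB3, 7mer-m8, chr20:397126-397155, plus strand: ccttttcagagAAAGGGAggtatccctgtg
PDIA3, 7mer-A1, chr15:43772565-43772594, plus strand: ttggaagatttAAGGGAAacatataaactt
ATF6, 8mer, chr1:161960372-161960401, plus strand: ttccttacaagAAAGGGAAcgagaaattgt
ATF6, 7mer-A1, chr1:161959320-161959349, plus strand: aatagaagggtAAGGGAAgggccagtggtg
ERP44, 7mer-m8, chr9:99980796-99980825, minus strand: gtggctgttaaAAAGGGAgttgatttgagg
ERP44, 7mer-A1, chr9:99979437-99979466, minus strand: atttgcaaaagAAGGGAAaactggcatgac
STC2, 7mer-m8, chr5:173314943-173314972, minus strand: catactcacacAAAGGGAgaaatttaaact
The 8mers alone divide: EIF2AK3 and NUPR1 were lower by 0.44 and 0.88 on the log2 scale, ATF6 was higher by 0.35, and DNAJC10 and WFS1 did not pass. STC2 holds a 7mer-m8 and had the third highest fold change of the 51. The matches of EDEM1 and TRIB3, and the 8mer of DNAJC10, lie outside the transcript the table lists for these genes. ASNS and PYCR1, which rose, and CALR and SESN2, which fell, have no match.

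**Figure D5:**
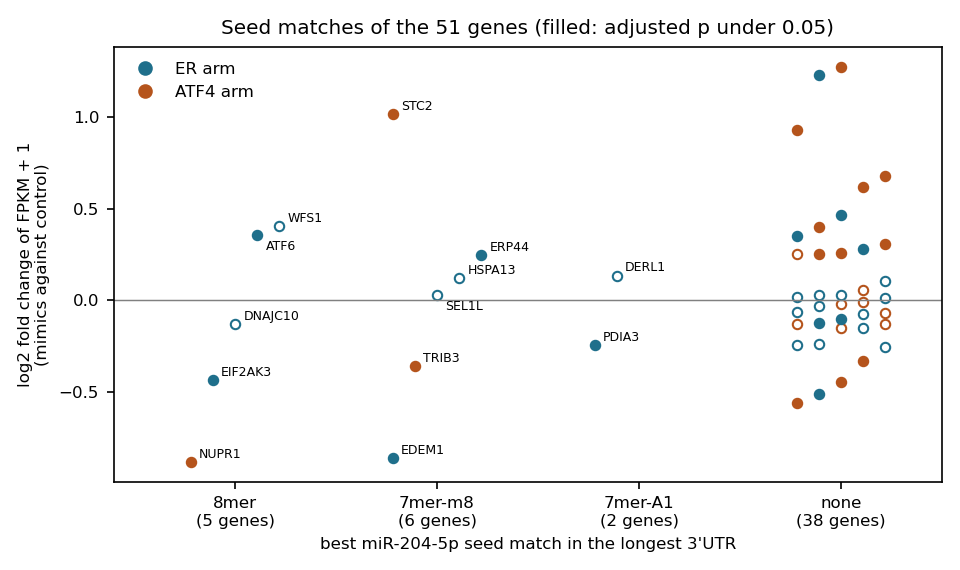
Log2 fold change of FPKM + 1 (y axis, miR-204-5p mimics against control mimics) of the 51 genes by the best miR-204-5p seed match in the longest 3'UTR (x axis); points are genes, blue ER arm and orange ATF4 arm, filled where the adjusted p was under 0.05. Genes with an 8mer run from NUPR1 at -0.88 to WFS1 at 0.40 (0.10 without control replicate 3), and the 38 genes without a match span a range from -0.56 to 1.27.

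Of the 26 genes past the adjusted p, 19 passed under all 12 alternatives tried, 7 lower and 12 higher. The 7 lower genes were PDIA3, CALR, EDEM1, EIF2AK3, NUPR1, TRIB3 and SESN2. The 12 higher genes were DNAJB9, ERP44, SDF2L1, MANF, ATF6, ATF3, STC2, PSAT1, SHMT2, MTHFD2, ASNS and PYCR1. The 7 that did not hold throughout were PDIA4, CANX, XBP1, ATF5, DDIT3, GDF15 and CTH, and 6 further genes (HYOU1, DERL2, CEBPB, VLDLR, PHGDH and ALDH18A1) gained a call under at least 1 alternative. The exons of DNAJB11 and SYVN1 overlap another gene on the same strand, those of 14 of the 51 genes overlap a gene on the other strand, and the strand setting of the authors' quantification is not given in the sources used here. For DDIT3, which overlaps MARS and MBD6, and ATF5, which overlaps NUP62 and IL4I1, reads of the partner cannot be told apart. PDIA3, XBP1, ATF4, PSAT1, PSPH, MTHFD2 and ASNS have annotated pseudogenes named after them, so their values are uncertain where reads could be shared.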

How the data were processed

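RNA from UM-SCC1 cells, 3 libraries of each mimic group, was made into TruSeq libraries and sequenced on a HiSeq X instrument. The submitters' processing notes name HISAT2, StringTie and hg38; versions, annotation and filters are not given in the sources used here. The authors deposited FPKM values, 1 per gene and library, each gene with 1 listed transcript. Whether the FPKM is that of the transcript or of the gene is not given in the sources used here. The authors' columns of their own edgeR comparison (log ratio, p-value and false discovery rate) were not used. Because the table holds no counts, log2(FPKM + 1) of all 14959 genes was fitted with limma 3.58.1 under R 4.3.3 (functions lmFit and eBayes, with a trend in the variance, two-sided, Benjamini-Hochberg at 0.05), with no filter, after a check on simulated data. Intervals are 95%. Groups came from the sample labels, and the labels give replicates as independent experiments. No block was used in the main fit, because the labels do not say that equal numbers mark libraries made together. The deviations of same-numbered libraries had correlations of -0.0401, -0.0210 and -0.108 over 11504 genes. With 3 libraries per group such values cannot show that the libraries were made apart.

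The 53 genes, the further pathway lists and the arms were chosen with earlier results of these data known. All 53 genes could be named, and of each further list the 3 highest and 3 lowest log2 fold changes past the threshold with a mean of at least 1 FPKM. Depth was inferred from 459 to 478 low values per library. Of these, 24.6% to 27.7% were whole multiples (within 0.02) of the best step, against a median of 3.31% to 3.67% over the steps searched. Finer steps, which would mean a greater depth, were not searched. The table's CARS and LARS are CARS1 and LARS1. Of 14959 listed transcripts, 14951 were found in GENCODE 29. Promoters and the miRNA came from RefSeq tables on GRCh38.p14, in which 46 of the 53 genes had a promoter (27 of the ER arm, 19 of the ATF4 arm). Motifs were sought as exact strings on both strands. The alternatives tried were genes with a mean of at least 1 FPKM, a pseudocount of 0.1, 3 other scalings (equal sums, equal medians, quantiles), the replicate block, each library left out, and a search of every 3'UTR rather than the longest. Scripts ran under Python 3.11.15 with pandas 2.3.3, numpy 2.4.6 and scipy 1.17.1.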

Additional observations from a re-analysis of the deposited data

How the results depend on the processing

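FPKM is relative to each library's total and does not show the fragment count behind a value, so the counting error cannot be read from it. Depth limits the low genes (ATF5, NUPR1, CHAC1, CTH and VLDLR) most. Alternatives that need counts (edgeR, DESeq2, filters on counts) were not run. With the replicate number as a block 5096 of all genes passed, against 6098, and leaving out 1 library gave 4971 to 5371. Whether equal numbers mark libraries made together is not given by the labels. The block ended the calls of PDIA4 (adjusted p = 0.132), XBP1 (0.0863), GDF15 (0.0946) and CTH (0.0848). It also took the other ER folding genes called higher from 13 to 8. Of genes called, 58.7% were higher, and 50.1% to 51.6% under the other scalings. Where a cause is not named below, it was not tested.

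With equal medians 8 genes of the ATF4 arm and 1 of its enzymes (ALDH18A1) were called lower, against 5 and 0. With a mean of at least 1 FPKM 5 other stress signalling genes were called higher, against 3. The ER arm median of 0.012 became -0.0393 (quantiles), -0.0332 (equal medians) and -0.0321 (equal sums). The ATF4 arm median of 0.023 became 0.0543 (mean of at least 1 FPKM, without VLDLR), -0.0099 (quantiles), -0.0209 (equal medians) and -0.0199 (equal sums). Over all genes the median of 0.0318 became 0.0407 (mean of at least 1 FPKM), -0.0001 (quantiles), 0.0083 (equal medians) and 0.0088 (equal sums). Leaving out 1 library gave 7 to 9 of the 51 genes called lower (7 without miR-204-5p mimics replicate 2), 3 to 4 of the ATF4 arm and 3 to 4 of its regulators, 8 to 11 other ER folding genes higher, an ER arm median of -0.037 to 0.0324 and an ATF4 arm median of 0.0037 to 0.0782.

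None of the 26 genes past the threshold changed direction under any of the 12 alternatives. Of the 25 not past it, 10 changed sign under at least 1. With quantiles, equal medians and equal sums in turn, HSP90B1 gave -0.0335, -0.0332 and -0.0321, ERN1 gave -0.0393, -0.0089 and -0.0078, and SEC61B gave -0.0005, -0.0292 and -0.0281. With equal medians and equal sums DNAJB11 gave -0.0176 and -0.0165 and SEL1L -0.015 and -0.0139. Leaving out 1 library gave a range from -0.061 to 0.0816 for HSP90B1, -0.0206 to 0.068 for DNAJB11, -0.069 to 0.0366 for DNAJC3, -0.259 to 0.1174 for HERPUD1, -0.037 to 0.0732 for ERN1, -0.0215 to 0.0565 for SEC61B, -0.0247 to 0.0053 for ATF4, -0.0916 to 0.0978 for CHAC1 and -0.2435 to 0.0683 for PSPH. The count of genes with a seed match stayed at 13 with all 3'UTRs joined. As these include the longest, the count could not fall, and it does not show which 3'UTRs the cells used.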
